A study of Mus musculus with 2 samples.

Results

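The genes described here are 38 interferon-induced and antigen presentation genes, of 32285 genes counted in each library, followed in muscle stem cells (MuSCs) and the other cells of mouse plantaris muscle. They were taken by name: 17 antiviral effectors, 8 interferon-inducible GTPases, 5 regulators of transcription, 7 genes of class I antigen presentation and the chemokine Cxcl10. The cells came from Pax7rtTA; TRE-H2B-GFP mice, 26 weeks old, given 2.0 mg/ml doxycycline in sweetened water for 2 weeks, and were collected 5 days after a sham operation or after mechanical overload (MOV), in which synergist muscles are cut so that the plantaris carries their load. Transgenes and doxycycline were shared by the sham and the MOV group, and rtTA was driven by the Pax7 promoter. Per the paper, GFP was induced only while doxycycline was given, before the surgery, and stays in the chromatin. The label therefore marks cells that used Pax7 at that time. The labels speak of a single mouse and the study's methods of several mice per group, and the sort is described by VCAM without CD31, CD45 and SCA1 in one place and by GFP in another. There was 1 single-cell library per condition, made with 10x Genomics 3′ chemistry, so no difference between conditions has a replicate check, no test was made, and every interval below covers counting error only.

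Interferons bind receptors at the cell surface, and the attached JAK kinases phosphorylate transcription factors, among them STAT2. STAT2 and IRF9 are part of a complex that binds the interferon-stimulated response element (ISRE), and a further element of interferon-induced genes is the gamma-activated site (GAS). The effectors hinder viral entry, translation and RNA (Ifitm3, Ifit1, Rsad2), and Ifih1, listed with them, is a sensor of RNA. The GTPases of the IRG and GBP families act on the membranes around intracellular pathogens. The class I genes cut proteins into peptides (Psmb8, Psmb9) and carry the peptides into the endoplasmic reticulum (Tap1). Others of this class load the peptides (Tapbp) and show them at the surface (H2-K1 and H2-D1 with B2m).

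The sequences upstream of these genes were searched for those elements. RefSeq start sites on GRCm38.p6 were matched for 30 of the 38 genes (35 start sites), and each window of 300 bases, 250 before the start and 50 from it, was searched on both strands for the ISRE letters (GAAA, any 2 bases, GAAA) and for TTCNNNGAA (GAS), with overlapping matches allowed. The ISRE letters were found in 16 of the 35 windows (45.7%) and in 3.44% of the 32851 windows of all genes. For the GAS letters the count was 9 windows (25.7%), against 8.3% of all windows, and 20 windows (57.1%) held either motif, against 11.3%. The 150 bases before the start are printed for genes whose levels are followed below, 5′ to 3′ on the gene's strand, with the matched letters in capitals. They lie at chr4:156200819-156200968 (minus strand), chr19:34640739-34640888 (plus), chr11:48871421-48871570 (minus), chr11:58199406-58199555 (plus), chr11:58214827-58214976 (plus), chr3:142620513-142620662 (plus) and chr2:122147537-122147686 (plus). The GENCODE annotation starts Ifit1, Irgm1, Irgm2 and Gbp2 inside or before these windows, so parts of them are also annotated as transcribed.
Isg15: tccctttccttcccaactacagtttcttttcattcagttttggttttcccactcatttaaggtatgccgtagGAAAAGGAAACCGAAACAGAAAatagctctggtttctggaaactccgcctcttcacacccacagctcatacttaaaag
Ifit1: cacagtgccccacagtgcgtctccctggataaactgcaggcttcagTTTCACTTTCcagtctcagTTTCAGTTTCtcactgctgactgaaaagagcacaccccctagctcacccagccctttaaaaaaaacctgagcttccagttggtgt
Irgm1: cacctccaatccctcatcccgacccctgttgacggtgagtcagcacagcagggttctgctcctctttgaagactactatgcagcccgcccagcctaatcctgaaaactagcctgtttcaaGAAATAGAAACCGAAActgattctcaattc
Igtp: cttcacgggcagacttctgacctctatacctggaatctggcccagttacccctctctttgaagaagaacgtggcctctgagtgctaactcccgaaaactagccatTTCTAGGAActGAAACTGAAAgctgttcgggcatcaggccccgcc
Irgm2: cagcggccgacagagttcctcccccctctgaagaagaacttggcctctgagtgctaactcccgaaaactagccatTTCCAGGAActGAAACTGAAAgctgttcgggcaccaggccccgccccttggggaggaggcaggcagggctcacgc
Gbp2: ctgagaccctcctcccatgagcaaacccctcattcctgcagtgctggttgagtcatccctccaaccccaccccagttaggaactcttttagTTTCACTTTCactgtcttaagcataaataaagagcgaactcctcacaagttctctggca
B2m: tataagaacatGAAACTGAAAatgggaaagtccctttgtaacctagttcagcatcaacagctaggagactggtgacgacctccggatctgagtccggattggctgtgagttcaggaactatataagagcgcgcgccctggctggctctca
In Isg15, an ubiquitin-like modifier, 3 overlapping ISRE matches began at positions -78, -72 and -66 from the start, and in Ifit1 a pair began at -104 and -85. In Igtp and Irgm2, neighbouring GTPase genes on chromosome 11, a GAS match was closely followed by an ISRE match, at -45 and -34 in Igtp and at -75 and -64 in Irgm2. H2-K1, H2-D1, Tap1 and Irf7 had neither motif in the window of 300 bases, which says only that these letters were not in that stretch. Cxcl10 had neither motif in the 150 bases, but an ISRE match further upstream, at -213. Iigp1, Parp14, Rtp4, Ifi27, Ifi27l2a, Usp18, Zbp1 and Nlrc5 were not matched.

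Several of the 38 genes have close copies or overlapping neighbours, so the split of reads between them is uncertain. On chromosome 11 the GENCODE models of Igtp (58199556 to 58207591) and Irgm2 (58199618 to 58222782) overlap on the same strand, and Irgm1 and Ifi47 of the same family lie on that chromosome too. The 6 class I genes other than B2m lie on chromosome 17, where Psmb9 (34181987 to 34187764) and Tap1 (34187553 to 34197225) overlap on opposite strands. Gbp2, Gbp3 and Gbp7 are related neighbours on chromosome 3, and Ifit1, Ifit2 and Ifit3 on chromosome 19.

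The sham library held 1100 cells and 7302661 UMIs (molecule counts), with a median of 4116.5 UMIs per cell, and the MOV library 3854 cells, 88498487 UMIs and a median of 16836. Cells with at least 2000 UMIs and under 10% mitochondrial UMIs were kept (578 sham, 2754 MOV) and grouped by the UMIs of marker genes, with cells of more than 1 lineage left out. Quiescent-marker cells were myogenic cells with Chrdl2, Calcr, Spry1 or similar transcripts (86 sham, 295 MOV), matrix cells carried Gpc3, Islr or Mgp (125 MOV), cycling cells carried Mki67, Top2a and similar transcripts (8 and 700) and Myog cells carried Myog, Mymk or Mymx (123 MOV). A further 314 myogenic MOV cells had none of these and are called remaining myogenic cells. Pax7 stood at 155 CPM (UMIs scaled to a group total of 1000000) in the sham and 140 CPM in the MOV quiescent-marker cells, while Myod1, a marker of activation, stood at 917 and 165 CPM. Chrdl2, a marker that sets this group, stood at 262 and 88.4 CPM, and the matrix marker Islr at 47.3 and 134 CPM. The part of these differences in the comparison of the 2 groups was not tested. The label of MuSCs did not hold for every cell. Of the 578 sham cells kept, 358 were fibre droplets with muscle fibre transcripts (Acta1 at 53338 CPM, Pax7 at 2.37), and Pdgfra cells, which are mesenchymal, numbered 26 and 432 and carried Ly6a, the gene for SCA1, at 1401 and 1498 CPM. Myeloid cells with Lyz2 and Ptprc numbered 2 and 56. The libraries shared 44 cell barcodes, which belonged to 38 of the kept sham cells and 6 of the kept MOV cells, and the 38 sham cells held 25.4% of the sham UMIs and 16.6% of those of the 38 genes. Only 1 of them was a quiescent-marker cell, 2 were Pdgfra cells and 5 were among the 8 sham cycling cells, for which no comparison was made.

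The 38 genes together made up 6977 CPM of the sham quiescent-marker cells and 5378 CPM of the MOV ones. Among the other myogenic MOV cells the sum was lower, at 2722 CPM in matrix cells, 2699 CPM in cycling cells, 3486 CPM in remaining cells and 1889 CPM in Myog cells. Pdgfra cells held 7097 CPM in sham and 6824 CPM in MOV, and the MOV myeloid cells held the highest sum, 11460 CPM. In sham fibre droplets it was 102 CPM, and in the 24 MOV fibre droplets 953 CPM. The sums therefore lay highest in myeloid, Pdgfra and quiescent-marker cells and lowest in fibre droplets. A few genes weigh most in such sums. Ifitm3 alone stood at 2167 CPM in MOV quiescent-marker cells. In myeloid cells Ifi27l2a stood at 2269 CPM, H2-D1 at 2061, B2m at 2006, Ifitm3 at 1769 and H2-K1 at 1349 CPM.

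**Figure D1:**
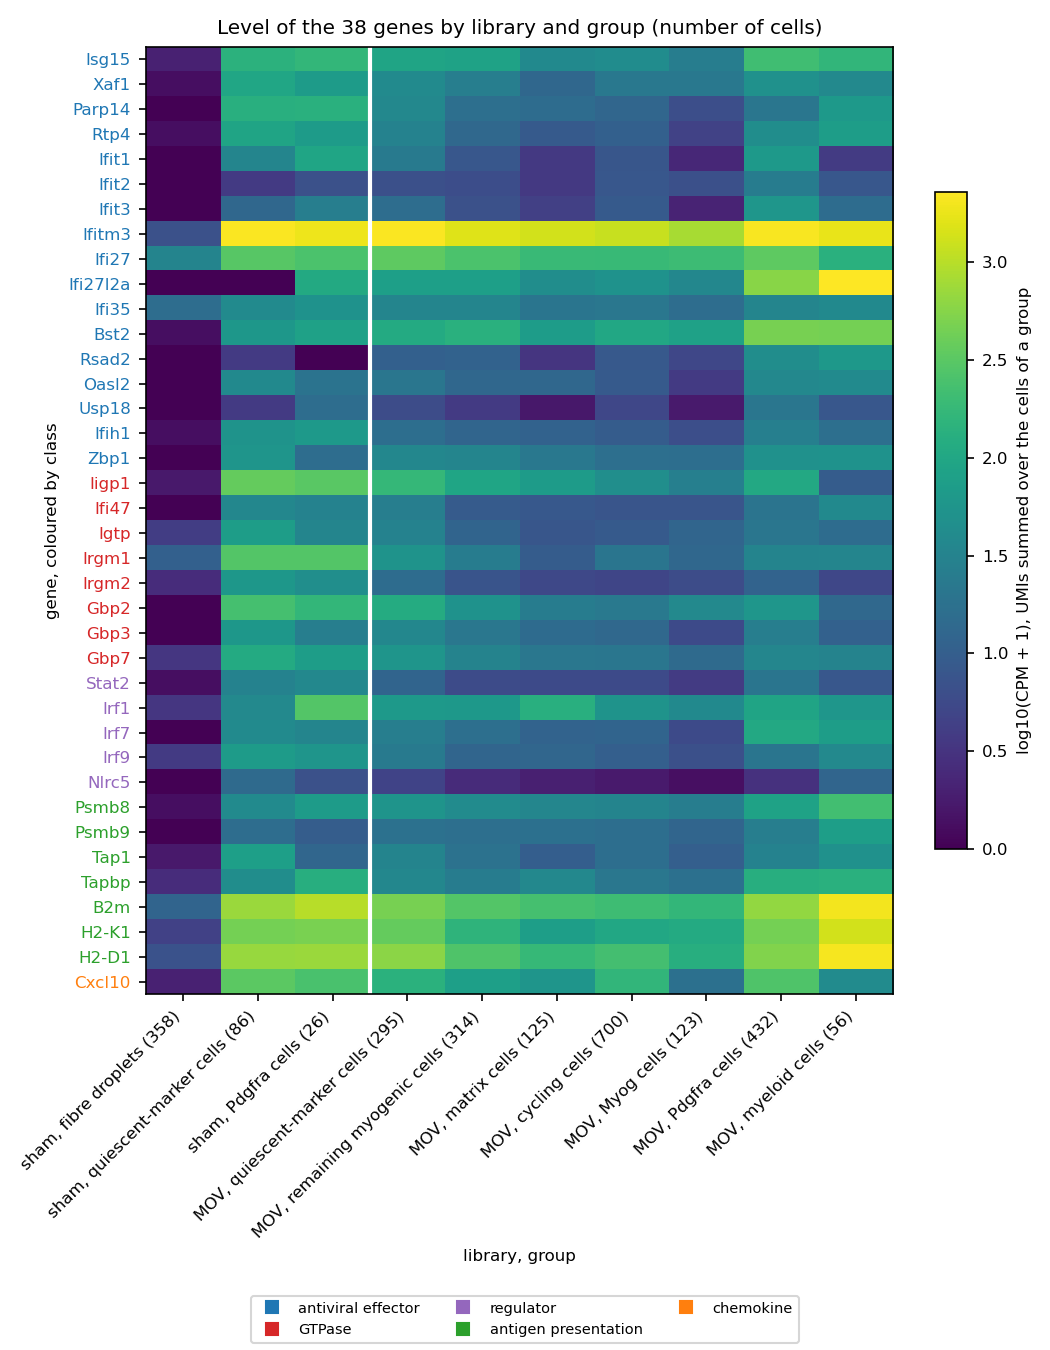
Heat map of log10(CPM + 1) of the 38 genes (vertical, by class) in the groups of each library (horizontal). Yellow is high and dark blue is low. The sham fibre droplets are the darkest column, and among the MOV groups B2m, H2-K1 and H2-D1 are brightest in myeloid cells.

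In the quiescent-marker cells, which were the only myogenic group with more than 8 cells in each library, 6 of 8 interferon-inducible GTPases and 3 of 5 regulators were called lower after MOV, while 1 of 7 class I genes was, and Ifitm3 and Ifi27 were close to their sham levels. Of the 38 genes, all of which reached 20 UMIs over the 2 groups, 15 were at least 2-fold lower and 3 at least 2-fold higher in MOV. Over all 8900 genes tested in this comparison, 6.22% were called lower and 17.4% higher. The median log2 ratio of the 38 genes was -0.62, against 0.22 over all genes. The sham cells were shallower (median 7912 against 12557 UMIs) and had more mitochondrial UMIs (median 5.7% against 3.06%), and the part of these differences in the result was not tested. With a marker threshold 2 times as high, 9 genes were called lower, and of the 15 calls 6 held under every alternative that gave a value (Parp14, Ifih1, Irgm1, Irgm2, Irf9 and Nlrc5).

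Of the 8 GTPases 6 passed 2-fold toward lower levels in MOV, with a class median of -1.05. The interval of Ifi47 (-1.07 to 0.24) included no difference, and its ratio was 0.51 with the higher marker threshold. Irgm1, a regulator of the IRG family that sits on host membranes, stood at 286 CPM (212 UMIs) in sham and 51.4 CPM (204 UMIs) in MOV, a log2 ratio of -2.48 (95% interval -2.76 to -2.20). Its partner Irgm2 stood at 59.5 CPM in sham and 14.4 CPM in MOV (log2 ratio -2.05, -2.64 to -1.45). Both calls held under each of the 13 alternatives run on this comparison. The share of cells with an Irgm1 UMI, after every cell was thinned to 2000 UMIs, was 44.2% in sham (exact 95% interval 33.5 to 55.3%) and 8.14% in MOV (5.28 to 11.9%), and 66.3% and 31.5% without thinning. In sham fibre droplets, with a median of 5542 UMIs, the thinned share was 1.96%, and in the 24 MOV fibre droplets, with a median of 10537 UMIs, it was 8.33% (2 droplets, 1.03 to 27%) with and without thinning. With 2 of 24 droplets, the thinned share of MOV quiescent-marker cells cannot be placed above or below that of the droplets of its own library. Irgm1 stood at 26.4 CPM (13 UMIs) in these droplets, which also carried Myog at 1719 CPM. Igtp stood at 73 CPM in sham and 30 CPM in MOV (log2 ratio -1.28), and Iigp1, an effector GTPase, at 369 and 173 CPM (-1.09). The guanylate-binding proteins were nearer to the 2-fold limit: Gbp2 was at 234 and 116 CPM (-1.01), Gbp7 at 111 and 54.9 CPM (-1.01) and Gbp3 at 59.5 and 35.3 CPM (-0.75). These calls were less steady, since Iigp1 stood at -0.67 and Gbp2 at -0.65 when each cell weighed the same, and with a mitochondrial limit of 5%, which left 24 sham cells, Gbp7 stood at 0.01 and Igtp at -0.55.

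Among the 5 regulators, Irf9, the DNA-binding partner of STAT2, stood at 67.6 CPM in sham and 23.4 CPM in MOV (log2 ratio -1.53, -2.04 to -1.003). Stat2 was at 29.7 and 11.1 CPM (-1.42, and -0.71 with the mitochondrial limit of 5%), and Nlrc5, the activator of class I genes, at 13.5 and 3.78 CPM on 10 and 15 UMIs (-1.84, -3.09 to -0.52). Irf7, which amplifies the type I response, differed less (39.2 and 26.4 CPM, -0.57, -1.17 to 0.08). Irf1 went the other way and stayed under 2-fold, with 36.5 CPM in sham and 62.5 CPM in MOV (0.78, 0.20 to 1.41).

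The effectors were mixed. Parp14, an ADP-ribosyltransferase, was at 131 CPM in sham and 36 CPM in MOV (-1.86), and Ifih1, the cytosolic RNA sensor MDA5, at 51.3 and 15.1 CPM (-1.77). Rtp4 was at 90.5 and 30.2 CPM (-1.58) and Xaf1 at 95.9 and 39.5 CPM (-1.28), although Rtp4 stood at -0.14 with the mitochondrial limit of 5% and Xaf1 at -0.67 with the higher marker threshold. Isg15 was lower by less than 2-fold, at 141 and 90.4 CPM (-0.64, -0.96 to -0.31), and its thinned share of cells was 18.6% in sham and 11.9% in MOV, with overlapping intervals (11.02 to 28.5% and 8.41 to 16.1%), and 38.4% and 33.6% without thinning. Ifitm3, a membrane protein that blocks viral entry, was level at 2174 and 2167 CPM (0.00, -0.08 to 0.07), and Ifi27 was at 304 and 333 CPM (0.13).

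The effectors called higher in MOV were Ifi27l2a, Rsad2 and Ifit2. Usp18 (0.90, -1.14 to 4.04) and Ifit3 (0.29, -0.73 to 1.49) pointed the same way within 2-fold, with intervals that included no difference. Ifi27l2a had 0 UMIs among 740116 in the sham quiescent-marker cells, which allows up to 4.05 CPM, and 308 UMIs (77.6 CPM) in MOV, a log2 ratio of at least 4.26. Its UMIs were present elsewhere in the sham library, with 37 (109 CPM) in the 26 Pdgfra cells. Rsad2 (viperin) rested on 2 UMIs in sham and 38 in MOV (1.82, -0.13 to 4.92), and Ifit2 on 2 and 22 (1.04, -0.99 to 4.17), so that their intervals included no difference, and Ifit2 passed 2-fold in 7 of 11 alternatives. Bst2 (tetherin), which holds budding virions at the surface, lay just under the limit at 58.1 and 113 CPM (0.96, 0.51 to 1.45). The myeloid markers Lyz2 and Ptprc were at 0 CPM in sham and at 12.3 and 0.25 CPM in MOV quiescent-marker cells. Ly6a and Pdgfra, which mark the Pdgfra cells, were at 2.70 and 0 CPM in sham and at 24.4 and 0.76 CPM in MOV quiescent-marker cells. The part of these transcripts in the values of Ifi27l2a and Bst2 was not tested.

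The class I genes differed little, with 1 of 7 called. B2m was at 703 CPM in sham and 464 CPM in MOV (-0.60, -0.74 to -0.46), H2-K1 at 445 and 368 CPM (-0.27, -0.44 to -0.09) and H2-D1 at 684 and 597 CPM (-0.20, -0.33 to -0.05). Their counting intervals excluded equality, but each difference was under 2-fold. Tap1, a subunit of the peptide transporter, was the gene called lower (78.4 and 31.5 CPM, -1.32, -1.78 to -0.84), though not when each cell weighed the same (-0.96), while the immunoproteasome subunits Psmb8 (0.44, -0.13 to 1.05) and Psmb9 (0.18, -0.75 to 1.25) and the loading factor Tapbp (-0.33, -0.89 to 0.28) had intervals that included no difference. Cxcl10, which attracts T cells, was at 327 CPM in sham and 138 CPM in MOV (-1.25, -1.47 to -1.02), but at -0.58 when each cell weighed the same. A Cxcl10 UMI was found in 11.6% of sham and 9.15% of MOV cells after thinning and in 14% and 23.1% before it, so no order was read from the shares.

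**Figure D2:**
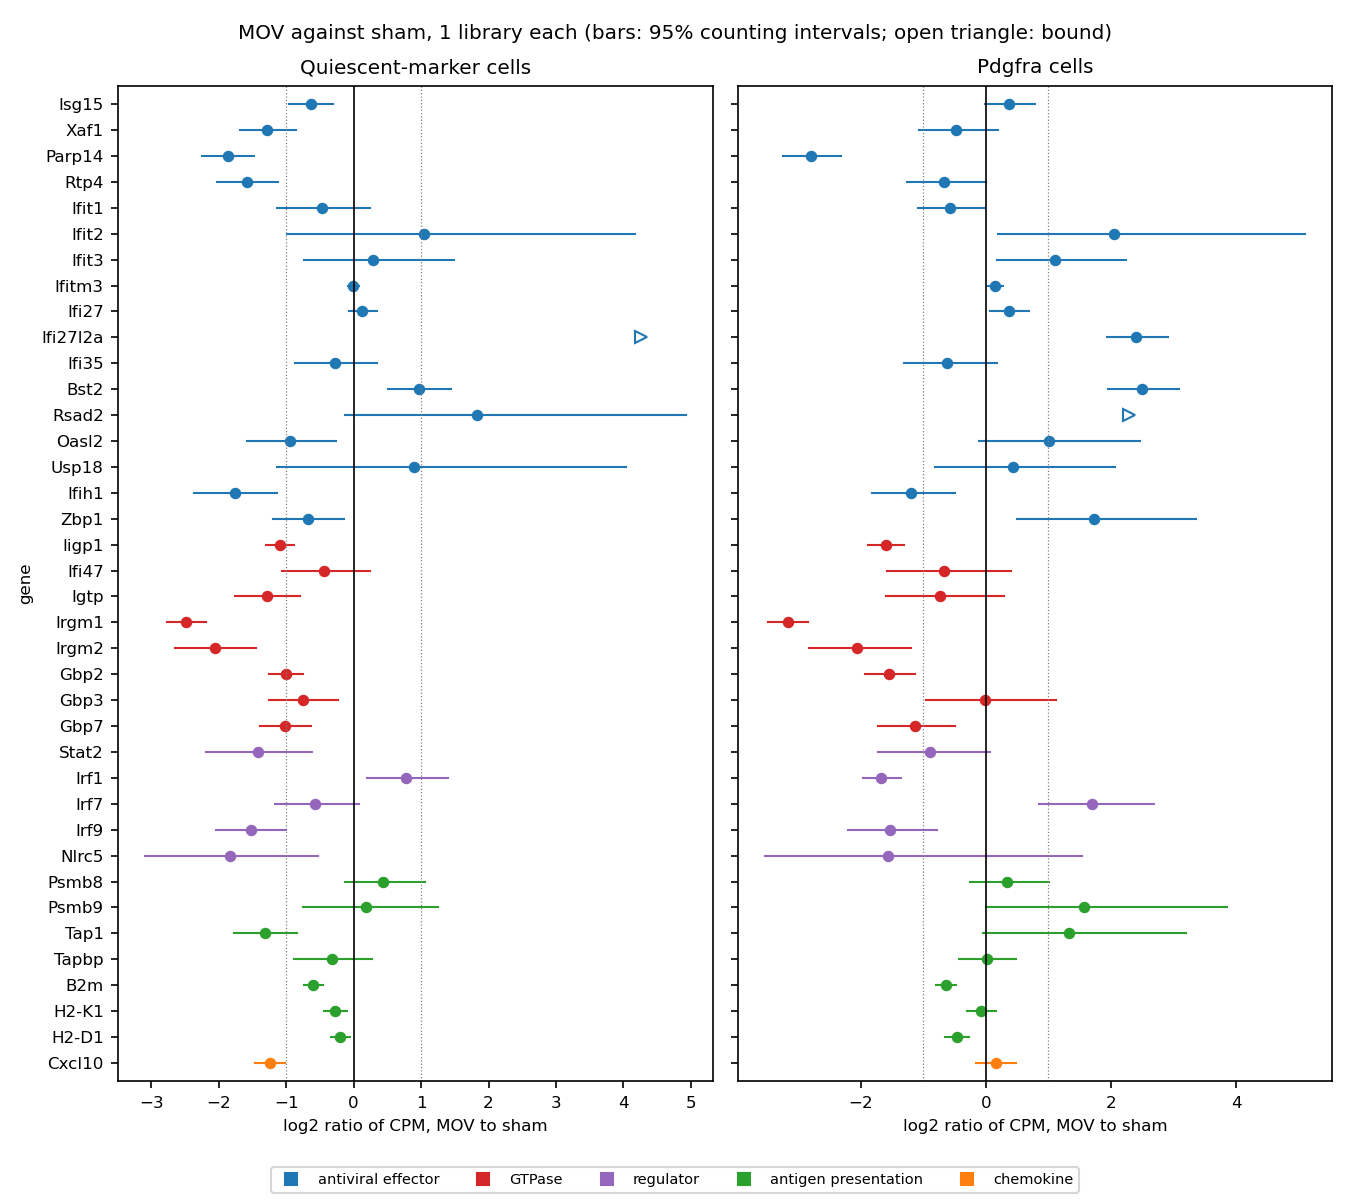
Log2 ratio of MOV to sham CPM for each of the 38 genes (vertical) in quiescent-marker cells and in Pdgfra cells, with exact 95% counting intervals as bars and lower bounds as open triangles. Irgm1, Irgm2 and Parp14 lie left of the 2-fold line in both panels and Ifi27l2a right of it.

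Pdgfra cells allowed the same comparison outside the myogenic lineage, although on 26 sham cells, 2 of which had a shared barcode. The sham cells were shallower (median 11602 against 36796 UMIs), and Pdgfra stood at 401 CPM in sham and 135 CPM in MOV. Islr stood at 484 and 158 CPM, and the cycling marker Mki67 at 8.85 and 98 CPM, in the same order. The part of these differences in the result was not tested. Here 10 of the 38 genes were called lower and 10 higher in MOV, against 16.4% and 11.4% of the 11932 genes tested. The 38 genes had a median log2 ratio of -0.27 and all genes one of 0.00. With TMM scaling the median of the 38 genes was 0.23 and that of all genes 0.28. The GTPases again had no member called higher and 5 of 8 called lower. Irgm1 was at 286 CPM in sham and 31.9 CPM in MOV (log2 ratio -3.17, -3.48 to -2.84), Irgm2 at 44.2 and 10.6 CPM (-2.06) and Iigp1 at 316 and 104 CPM (-1.60). Parp14 was at 136 and 19.6 CPM (-2.79, -3.24 to -2.31) and Irf1 at 289 and 90.6 CPM (-1.67, -1.97 to -1.36), whereas its level in quiescent-marker cells was higher in MOV, and this difference between the groups was not tested.

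Of the 17 effectors, 7 were called higher in MOV Pdgfra cells, while Parp14 and Ifih1 (-1.195, -1.83 to -0.49) were called lower. Among those higher, Oasl2 rested on 6 UMIs in sham (1.015, -0.12 to 2.47) and passed 2-fold in 10 of 13 alternatives. Ifit2 rested on 2 UMIs in sham (2.05, 0.19 to 5.10). Ifi27l2a was at 109 CPM in sham and 578 CPM in MOV (2.40, 1.94 to 2.91), Bst2 at 82.6 and 464 CPM (2.49, 1.96 to 3.08) and Irf7, a regulator, at 32.4 and 105 CPM (1.69, 0.85 to 2.69). Rsad2 had 0 UMIs in sham and 690 in MOV (43 CPM), a log2 ratio of at least 2.28. Zbp1, a sensor of Z-form nucleic acids, was at 14.8 and 48.8 CPM on 5 and 783 UMIs (1.73, 0.50 to 3.35). Ifitm3 differed by less than 2-fold here too (1879 and 2086 CPM, 0.15). Of the 7 class I genes, Psmb9 (8.85 and 26.2 CPM on 3 and 420 UMIs, 1.57, 0.008 to 3.85) and Tap1 (11.8 and 29.5 CPM on 4 and 474 UMIs, 1.32, -0.04 to 3.21) were called higher. B2m (1003 and 646 CPM, -0.63), H2-K1 (472 and 447 CPM, -0.08) and the other class I genes did not reach 2-fold.

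Summed over all kept cells, the 38 genes made up 2847 CPM in sham and 4222 CPM in MOV, but these sums cannot be read as levels in 1 cell type. Fewer cells of a type and less RNA per cell cannot be told apart in them, and fibre droplets made up 358 of the 578 sham cells and 24 of the 2754 MOV cells. In these sums 10 genes were called higher and 4 lower (22.5% and 13.2% of all 15296 genes tested). With DESeq2 size factors the counts were 2 higher and 9 lower, and with TMM 6 and 8. Ifi27l2a (28.1 and 210 CPM, 2.90) and Bst2 (54.1 and 213 CPM, 1.98) were called higher and Irgm1 (112 and 27 CPM, -2.05) lower under every alternative. In fibre droplets 8 of the 38 genes had enough UMIs, and 7 were called higher in MOV and none lower, where 30.1% of the 6399 genes tested were higher and 15.9% lower. Ifitm3 was at 5.76 CPM in sham and 272 CPM in MOV droplets (5.56), and H2-K1 at 3.39 and 50.7 CPM (3.90). The MOV droplets also carried Myog at 1719 CPM, against 2.03 CPM in sham, and the part of that in the result was not tested.

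Within the MOV library the myogenic groups could be compared with more cells. Matrix cells held lower levels of most of the genes than quiescent-marker cells, with 24 of 37 tested genes called lower and 1 higher, against 5.23% and 7.05% of all 9931 genes tested. All 8 GTPases were among the genes called lower, with log2 ratios from -2.58 to -1.34. Irgm1 was at 51.4 CPM in quiescent-marker and 8.60 CPM in matrix cells (-2.58, -3.23 to -1.99), and Ifit1, which binds viral RNA, at 23.4 and 2.65 CPM on 93 and 8 UMIs (-3.15). Of the class I genes, H2-K1 was at 368 and 74.4 CPM (-2.31, -2.52 to -2.10) and H2-D1 at 597 and 178 CPM (-1.74), while Tapbp (34.5 and 36.4 CPM, 0.08) and Psmb9 (16.9 and 16.2 CPM, -0.06) were level. Irf1 was the gene called higher, at 62.5 CPM in quiescent-marker and 131 CPM in matrix cells (1.07, 0.84 to 1.30). The thinned share of cells with an Irf1 UMI was 7.80% in quiescent-marker and 24% in matrix cells, against 4.17% in the 24 MOV fibre droplets, and 28.1%, 65.6% and 16.7% without thinning. The Irf1 ratio was 0.98 with TMM scaling and 0.88 with the higher marker threshold, both under 2-fold.

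Cycling cells had 22 of the 38 genes called lower than quiescent-marker cells and none called higher, against 10.7% and 16.2% of 12502 genes tested, and the median log2 ratios were -1.14 and 0.07. Again all 8 GTPases were called lower, from -2.43 to -1.43. Gbp2 was at 116 CPM in quiescent-marker and 21.6 CPM in cycling cells (-2.43, -2.61 to -2.26), Iigp1 at 173 and 45.1 CPM (-1.94) and H2-K1 at 368 and 103 CPM (-1.84). Ifitm3 (2167 and 1202 CPM, -0.85) and Bst2 (113 and 101 CPM, -0.17) stayed within 2-fold, and Cxcl10 was at 138 and 161 CPM (0.22, 0.09 to 0.35). When each cell weighed the same, 12 genes were called lower and Cxcl10 was called higher (1.10). Cycling cells were the deeper group (median 35763 against 12557 UMIs).

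Myog cells, which are committed to differentiation, had the lowest sum of the myogenic groups in MOV. Compared with quiescent-marker cells, 31 of 37 tested genes were called lower and none higher, where 14.7% of 10530 genes were lower and 15.6% higher, and the median log2 ratio was -1.72 against -0.02 over all genes. Ifit1 was at 23.4 CPM in quiescent-marker and 1.35 CPM in Myog cells (-4.12, -5.47 to -3.02), Cxcl10 at 138 and 16.4 CPM (-3.08), Iigp1 at 173 and 26.9 CPM (-2.68) and H2-D1 at 597 and 126 CPM (-2.24, -2.37 to -2.12). The class I genes called lower numbered 6 of 7, and Psmb9 was the exception (16.9 and 11.5 CPM, -0.55, -1.08 to -0.02). Bst2 (113 and 82 CPM, -0.47), Ifi27 (333 and 200 CPM, -0.73) and Irf1 (62.5 and 37.7 CPM, -0.73) also stayed within 2-fold, and Ifit2 was level (5.54 and 5.58 CPM, 0.01).

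Set against cycling cells of like depth (medians 37705 and 35763 UMIs), Myog cells differed in fewer genes, with 9 of 38 called lower and none higher, against 13.9% and 9.43% of 12637 genes tested. These 9 were Cxcl10 (161 CPM in cycling and 16.4 CPM in Myog cells, -3.30, -3.62 to -2.99), Ifit3 (8.02 and 1.15 CPM, -2.80), Usp18, Ifit1, Oasl2, Gbp3, Rtp4, Irf7 and Parp14, and each was called under all alternatives run. None of the 7 class I genes was called, and H2-K1 was at 103 and 112 CPM (0.12, -0.01 to 0.25). Gbp2 pointed the other way within 2-fold, at 21.6 and 36.8 CPM (0.77, 0.53 to 1.00), as did Igtp at 8.02 and 11.5 CPM (0.53, 0.09 to 0.94). Neither direction was steady, since each ratio had the other sign in 2 of 13 alternatives, down to -1.995 for Gbp2 and -0.64 for Igtp. A Gbp2 UMI was found in 31.6% of cycling and 16.3% of Myog cells without thinning, and in 4.29% and 2.44% with it. The number called lower was 22 with the higher marker threshold and 24 when each cell weighed the same.

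**Figure D3:**
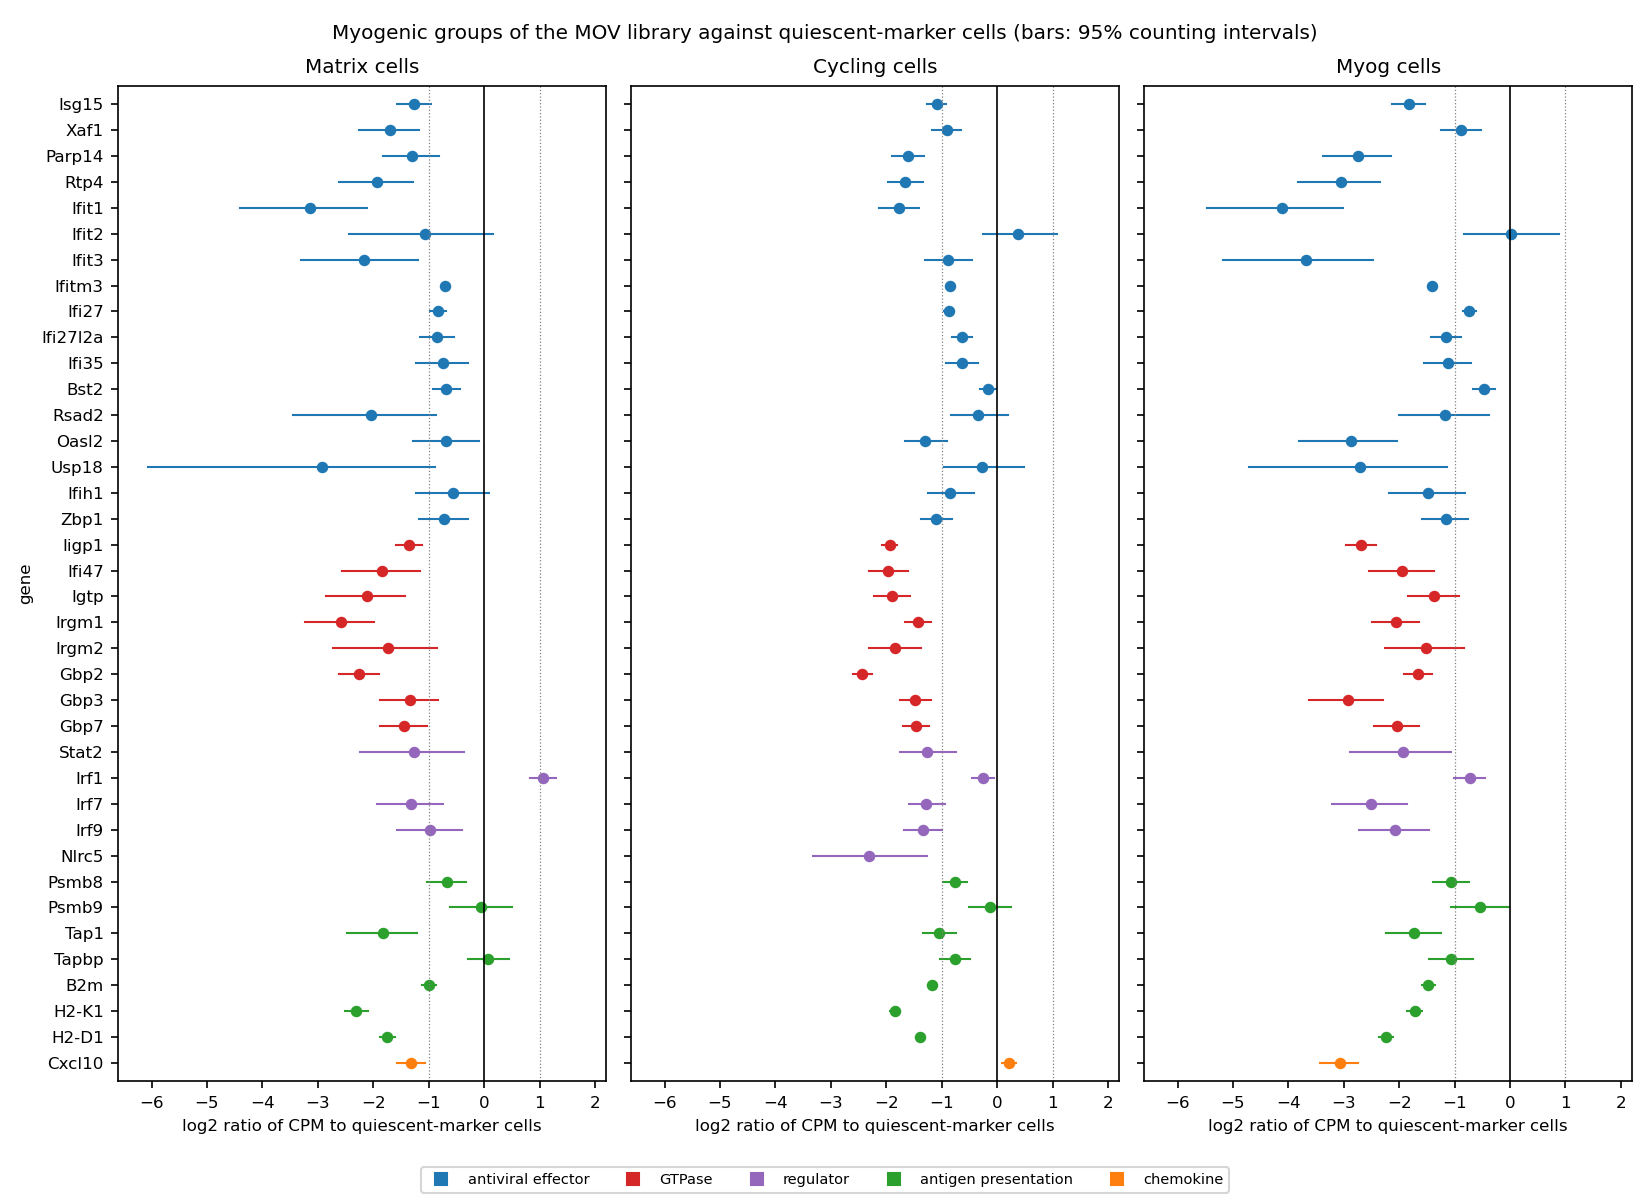
Log2 ratio to quiescent-marker cells of the 38 genes (vertical) in MOV matrix, cycling and Myog cells, with exact 95% counting intervals as bars and dotted lines at 2-fold. All 8 GTPases lie left of the 2-fold line in the 3 panels, and Irf1 in matrix cells is the 1 point right of the opposite line.

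The cells outside the myogenic lineage set the scale for these levels. In MOV Pdgfra cells 10 of the 38 genes were called higher than in quiescent-marker cells and 1 lower, against 24.1% and 11.1% of 12321 genes tested, so the share higher was close to the background. Of the 10, 8 were effectors. Ifi27l2a was at 77.6 CPM in quiescent-marker and 578 CPM in Pdgfra cells (2.90, 2.73 to 3.07), Rsad2 at 9.57 and 43 CPM (2.17), Ifit2 at 5.54 and 24.4 CPM (2.14) and Isg15 at 90.4 and 214 CPM (1.24, 1.08 to 1.40), the last at 0.94 when each cell weighed the same. The GTPases pointed the other way, all 8 with a lower level in Pdgfra cells (-1.02 to -0.43), but only Gbp2 (116 and 57.5 CPM, -1.02) passed 2-fold, and not under every alternative. Tapbp was the class I gene called, at 34.5 and 128 CPM (1.89).

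Myeloid cells, which present antigen and sense interferon, carried more of the class I genes. Against quiescent-marker cells of the same library, 13 of the 38 genes were called higher and 8 lower (19% and 24.5% of 9381 genes tested), and 6 of the 7 class I genes were called higher, at log2 ratios up to 2.15. B2m was at 464 CPM in quiescent-marker and 2006 CPM in myeloid cells (2.11, 2.01 to 2.21), H2-D1 at 597 and 2061 CPM (1.79) and Psmb8 at 53.1 and 218 CPM (2.04, 1.73 to 2.34). Ifi27l2a reached 2269 CPM (4.87, 4.69 to 5.05). The GTPases were again on the other side, with 5 of 8 called lower. Iigp1 was at 173 CPM in quiescent-marker and 8.49 CPM in myeloid cells on 6 UMIs (-4.35, -5.80 to -3.22), and Gbp2 at 116 and 12.7 CPM (-3.19, -4.33 to -2.25). When cells with markers of 2 lineages were kept, 1 gene was called lower, Gbp2.

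By CPM, the order of the groups differed by class. Among 7 MOV groups without the fibre droplets, 17 genes were highest in myeloid cells, 11 in Pdgfra cells, 9 in quiescent-marker cells and 1, Irf1, in matrix cells. The counting intervals of the top 2 groups did not overlap for 8 of the 17, 8 of the 11, 6 of the 9 and for Irf1. All genes were not ordered in this way, so these counts and those of the lowest groups below have no background share. Overlap also depends on the UMIs of a group, which were 706443 in myeloid and 30306571 in cycling cells. The 9 were Ifitm3, Ifi27 and 7 of the 8 GTPases, all but Ifi47. Every class I gene was highest in myeloid cells, and Isg15, the 3 Ifit genes, Bst2, Usp18 and Cxcl10 were highest in Pdgfra cells. Of the genes named here, Ifi27, Irgm1, Irgm2, Tap1, Tapbp and Bst2 had overlapping intervals in their top 2 groups. Myog cells were lowest for 24 genes, with no overlap of the lowest 2 intervals for 11 of them. Among the 5 myogenic groups alone, by CPM only, quiescent-marker cells were highest for 30 of the 38 genes and Myog cells lowest for 25.

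Fibre droplets served as the background of the sham library. Of the 38 genes 31 had enough UMIs, and all 31 were called lower in sham fibre droplets than in quiescent-marker cells, where 44.5% of 7378 genes were lower and 29.2% higher. Ifitm3 was at 5.76 CPM against 2174 CPM (-8.56), B2m at 11.2 against 703 CPM (-5.97) and Isg15 at 1.02 against 141 CPM on 3 and 104 UMIs (-7.11). Ifi27 (31.5 CPM, -3.27) and Ifi35 (14.9 CPM, -1.39) stood nearest to their levels in quiescent-marker cells. The thinned share of droplets with a UMI was 0% for Isg15, 1.12% for H2-D1 and 0.84% for Irf1, against 18.6%, 66.3% and 8.14% of the sham quiescent-marker cells.

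The share of cells with a UMI followed the same order for H2-D1. After thinning it was 66.3% in sham and 61.4% in MOV quiescent-marker cells, 24% in matrix, 36.3% in cycling and 15.5% in Myog cells, and 57.6% in MOV Pdgfra and 92.9% in myeloid cells. Without thinning these shares were 97.7%, 95.3%, 88%, 97.7%, 80.5%, 98.2% and 100%. For Ifi27l2a the thinned share was 0 of 86 sham quiescent-marker cells (upper limit 4.20%), 8.81% of the MOV ones, 41.9% of MOV Pdgfra cells and 71.4% of myeloid cells. The unthinned shares of Ifi27l2a were 0%, 25.4%, 80.6% and 82.1%. It was at 0% in sham and in MOV fibre droplets after thinning.

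The genes were spread unevenly over the cells of a group. With every cell at 2000 UMIs, the 38 genes together had a median of 10.5 UMIs per cell in sham and 9 in MOV quiescent-marker cells, with ranges of 1 to 67 and 0 to 76. Matrix cells had a median of 5, cycling cells of 4 (0 to 107), Myog cells of 2 (0 to 35) and myeloid cells of 21.5 (4 to 53), while 81% of sham fibre droplets had none. The 5% of cells with the most member UMIs held 17.7% of them in sham and 17.0% in MOV quiescent-marker cells, 27.8% in cycling cells and 11.3% in myeloid cells. For 11 effectors taken alone (Isg15, Xaf1, Rtp4, Ifit1, Ifit2, Ifit3, Rsad2, Oasl2, Usp18, Ifih1 and Zbp1) the thinned UMIs were few, with 100 in sham and 191 in MOV quiescent-marker cells, 300 in cycling and 21 in Myog cells. No UMI of these 11 was found in 54.7% of sham and 71.9% of MOV quiescent-marker cells, 81.7% of cycling and 87% of Myog cells. Such shares depend on the number of UMIs, so no order was read from them.

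**Figure D4:**
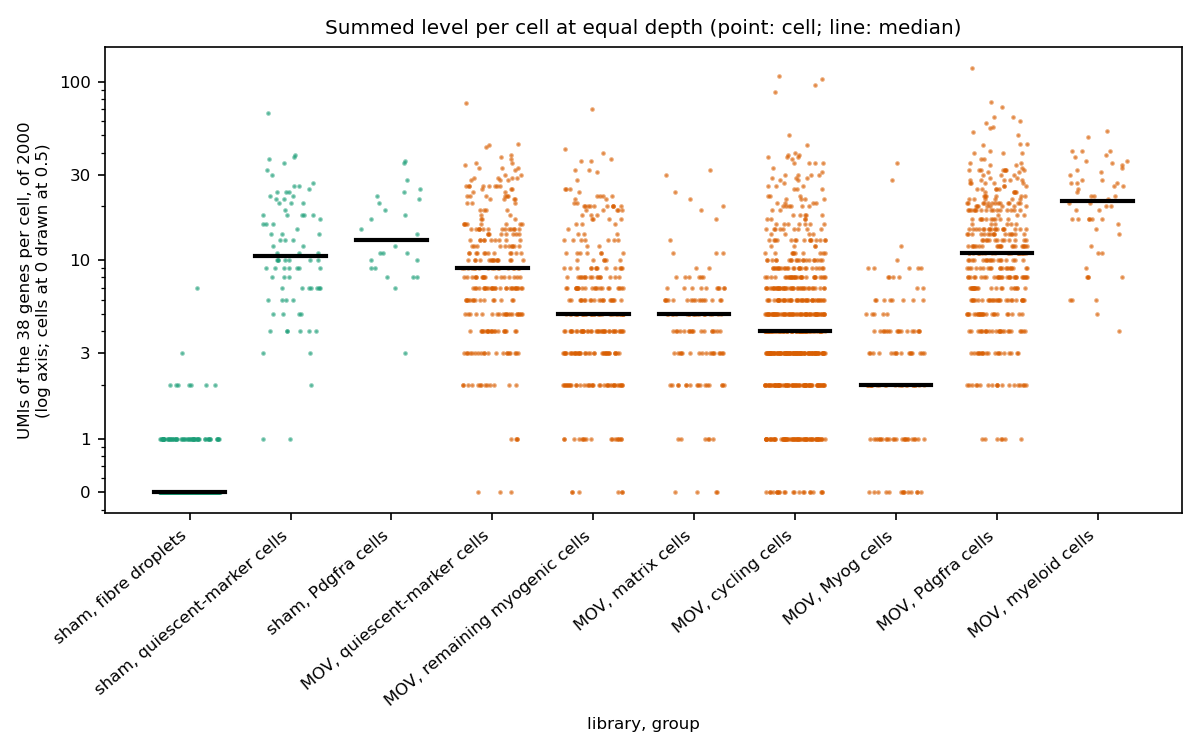
UMIs of the 38 genes per cell, with every cell thinned to 2000 UMIs (vertical, logarithmic axis), in each group of the sham and MOV libraries, with 1 point per cell and lines at the medians. The cycling cells have a median of 4 and reach 107, and most sham fibre droplets lie at 0.

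Cells in which at least 2 UMIs of those 11 effectors were found, at 2000 UMIs per cell, were set beside cells with none, in the 20 GTPase, regulator and class I genes that the split did not use. Both sides of the split are defined by measured values, so the ratios are a description of how the genes go together within a library. In sham quiescent-marker cells (22 and 47 cells) 14 of 17 tested genes were called higher in the cells with effector UMIs, against 5.09% of all genes tested, with a median log2 ratio of 1.54. In MOV quiescent-marker cells (42 and 212 cells) it was 16 of 19 genes (2.84% of all genes, median 2.41), and in cycling cells (51 and 572 cells) 19 of 19 (6.01%, median 2.68). Remaining myogenic cells gave 18 of 19 (4.62%, median 2.75) and Pdgfra cells 16 of 20 (3.75%, median 2.39). The cells with effector UMIs were shallower in MOV quiescent-marker (median 9905 against 13604 UMIs) and cycling cells (23729 against 37446), and of like depth in Pdgfra cells (37546 against 36678).

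The GTPases differed widely between these cells. Iigp1 was at 730 CPM in MOV quiescent-marker cells with effector UMIs and 83.6 CPM in those without (3.13, 2.89 to 3.37), and at 327 and 20.3 CPM in cycling cells (4.01, 3.83 to 4.18). Irf7 was at 105 and 4.53 CPM in cycling cells (4.54, 4.19 to 4.89). Class I genes differed less in quiescent-marker cells, where H2-K1 was at 809 and 280 CPM (1.53, 1.35 to 1.71) and B2m at 922 and 364 CPM (1.34). Irf1 did not follow the others in every group. It was at 36.2 CPM with and 69.4 CPM without effector UMIs in MOV quiescent-marker cells (-0.94, -1.77 to -0.21) and at 25.2 and 66 CPM in remaining myogenic cells (-1.39, -2.36 to -0.57), but at 105 and 50.1 CPM in cycling cells (1.07, 0.83 to 1.30) and at 183 and 63.9 CPM in Pdgfra cells (1.52, 1.36 to 1.68). The difference between these groups was not tested.

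**Figure D5:**
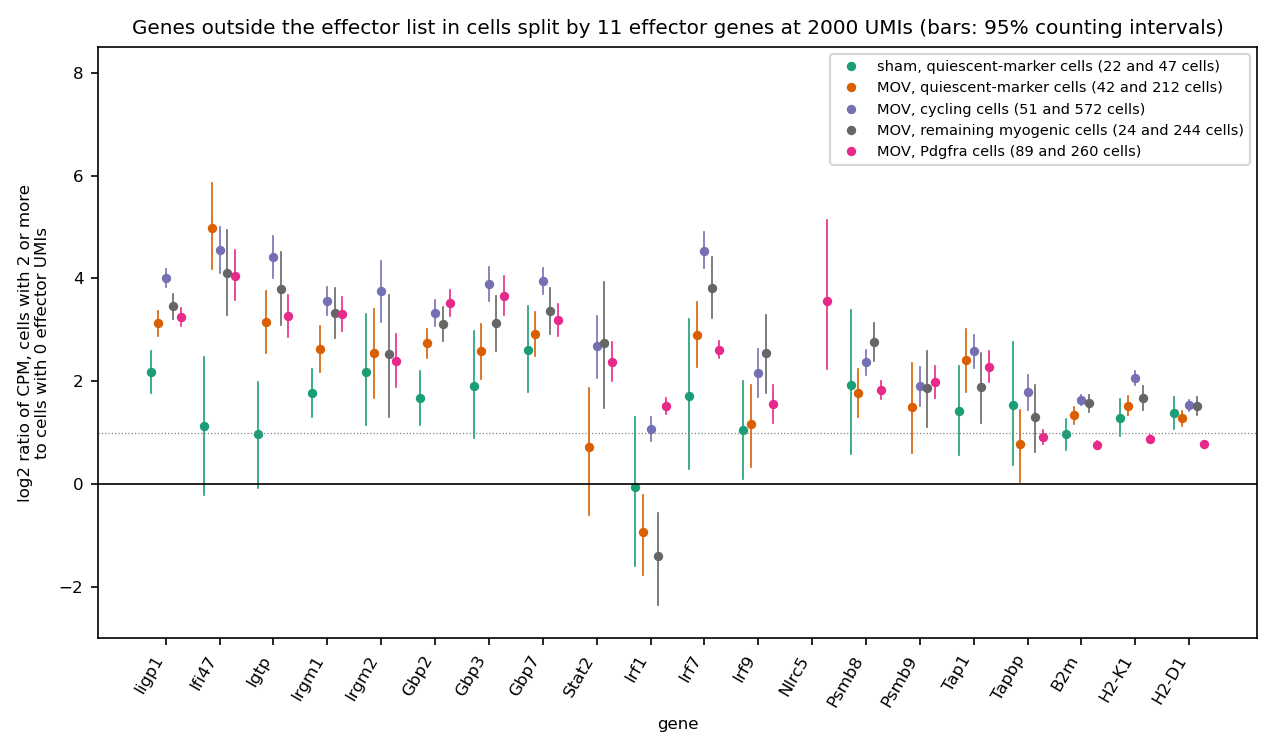
Log2 ratio of CPM in cells with at least 2 effector UMIs to cells with none (vertical) for the 20 other genes (horizontal) in 5 groups of cells, with 95% counting intervals as bars. The points of all genes but Irf1 lie above 0, and Irf1 lies below 0 in sham and MOV quiescent-marker and in remaining myogenic cells.

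The wider pathway was followed in 132 genes of 9 lists, which hold no member. None of the 9 interferon ligand genes reached 20 UMIs in any comparison, so their levels could not be compared at this depth. Of 17 receptor, kinase and signalling genes, 15 were tested between sham and MOV quiescent-marker cells, with 1 called higher and 3 lower, against 17.4% and 6.22% of all genes tested in that comparison. Ifnar2, a chain of the type I receptor, was level (98.6 and 99.5 CPM, 0.01, -0.35 to 0.39), and Jak1 was at 336 and 276 CPM (-0.29, -0.49 to -0.08). Socs1, a feedback inhibitor of JAK kinases, was at 98.6 and 33.5 CPM (-1.56, -1.98 to -1.13), and Ifngr2, a chain of the gamma receptor, at 20.3 and 50.4 CPM (1.31, 0.56 to 2.18). Among 26 tested antiviral effectors outside the 38 genes, 8 were called lower and 2 higher, to be read against the same background. Isg20, an exonuclease, was at 78.4 and 13.9 CPM (-2.50, -3.06 to -1.94), and Dtx3l and Helz2 were at -2.08 and -1.95. Ly6a, one of those called higher, was at 3.18 on 2 and 97 UMIs. It also marks the Pdgfra cells, and the part of their transcripts in this value was not tested. Gbp6 was the 1 of 4 further GTPases called, at 86.5 and 20.1 CPM (-2.10).

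Between MOV quiescent-marker and Myog cells, 9 of 16 tested receptor and signalling genes were called lower and 1 higher (14.7% and 15.6% of all genes tested), with a median log2 ratio of -1.07. Jak1 was at 276 and 72.4 CPM (-1.93, -2.10 to -1.76), Ifngr1 at 103 and 40 CPM (-1.36) and Ifnar2 at 99.5 and 47 CPM (-1.08). Of 17 further class I genes 8 were called lower, among them H2-Q4 (119 and 11.5 CPM, -3.36) and H2-T23 (50.1 and 4.81 CPM, -3.38). Psmb5, the constitutive counterpart of Psmb8, was called higher, at 189 and 444 CPM (1.23, 1.11 to 1.35). In cycling cells 14 of 37 tested further effectors were called lower and 2 higher than in quiescent-marker cells (10.7% and 16.2% of all genes tested). Those higher were Slfn9 (6.80 and 57.4 CPM, 3.08) and Ifitm1 (1.26 and 7.26 CPM on 5 and 220 UMIs, 2.53), and H2-T23 (50.1 and 8.35 CPM, -2.59) and Gbp5 (26.2 and 4.85 CPM, -2.43) were among the genes lower. In Pdgfra cells 23 of 40 further effectors were called higher than in quiescent-marker cells and none lower (24.1% and 11.1% of all genes tested).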

How the data were processed

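Single-cell RNA sequencing had been run on cells sorted from plantaris muscle, 1 sham and 1 MOV library. Per the labels and the submitters' processing notes, the authors aligned reads to mm10 with Cell Ranger 6.0.0 (R 4.0.2 and Seurat 4.0.2 are also named), and they deposited filtered matrices of UMI counts for 32285 genes with no normalization. The genes and lists were chosen with earlier results of these data known, and the group thresholds were set after the marker distributions had been seen.

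Cells were kept at 2000 or more UMIs and under 10% mitochondrial UMIs. A lineage needed marker UMIs per 10000 UMIs of at least 500 for fibre droplets, 5 for myogenic cells, 10 for Pdgfra cells (with a Pdgfra UMI) and 5 for myeloid cells. Myogenic cells were then grouped at 5 (quiescent, cycling, Myog) or 20 (matrix). Cells with markers of 2 or more lineages (31 sham, 237 MOV) were left out. No doublet caller was used beyond this, and an alternative removed 3 sham and 61 MOV cells by score. The UMIs of each group were added up, scaled to CPM and compared as log2 ratios with exact conditional 95% intervals. A gene was tested with 20 or more UMIs over both groups and called at 2-fold, and with 0 UMIs in 1 group the ratio was taken against 3 counts. For shares of cells, each cell was thinned to 2000 UMIs, and the intervals are exact binomial. The code was tested on simulated data. Of the 132 pathway genes, those named are up to 5 per direction with the most distant near bound of the interval, in 3 comparisons (MOV against sham in quiescent-marker cells, and cycling and Myog against quiescent-marker cells), and receptor and signalling genes chosen after their values were seen. Gene positions are from GENCODE M21 for all 38 genes. Promoter windows are from RefSeq. Deeper cells weigh more in the sums, which an alternative with equal weights addresses. Python 3.11.15, numpy 2.4.6, scipy 1.17.1, pandas 2.3.3, scanpy 1.11.5 and matplotlib 3.10.9 were used, with R 4.3.3, edgeR 4.0.16 (TMM factors) and DESeq2 1.42.0 (size factors) for scaling only.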

Additional observations from a re-analysis of the deposited data

Results flagged for a closer look

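Tap1, a subunit of the peptide transporter, pointed in opposite directions in the groups that could be compared between sham and MOV. Its log2 ratio of MOV to sham was -1.32 in quiescent-marker cells (-1.78 to -0.84, on 58 and 125 UMIs) and 1.32 in Pdgfra cells (-0.04 to 3.21, on 4 and 474 UMIs). The difference between the groups was not tested, and the second interval includes no difference. When each cell weighed the same, the ratio of Tap1 in quiescent-marker cells was -0.96, under 2-fold.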

How the results depend on the processing

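No paired analysis was possible because each condition has 1 library, and for the same reason no library could be left out. Over the alternatives run, 272 of 316 counts and shares stayed within 1.5 times or the counting interval of the reported value and 44 moved. Of 4822 ratios of single genes 4329 stayed, 490 moved and 3, all of genes called in the reported values, changed sign. Changes of sign in genes not called were not counted apart. Gbp3 in MOV against sham Pdgfra cells, for example, had the other sign in 8 of 13 alternatives. For MOV against sham over all cells, the 10 genes called higher became 16 with a mitochondrial limit of 5%, 6 with TMM, 2 with DESeq2 size factors and 17 when each cell weighed the same, and the 4 called lower became 1, 8, 9 and 1 in that order, and 8 without the shared barcodes. Their median of 0.17 became -0.049 with TMM, -0.21 with DESeq2 and -0.054 without the shared barcodes, where TMM and DESeq2 put the median of all genes at 0.12 and 0.00 in place of 0.34. In quiescent-marker cells 1 gene in place of 3 was called higher with at least 100 UMIs for a call, and 9 in place of 15 lower with a marker threshold 2 times as high. In Pdgfra cells the median of -0.27 became 0.23 with TMM. For fibre droplets 7 genes became 23 with no minimum of UMIs and 2 with 100 UMIs. For matrix cells the 1 gene higher became 0 with the higher threshold and with TMM. For cycling cells, weighing each cell the same gave 1 gene higher in place of 0 and 12 lower in place of 22. For Myog against cycling cells, 9 lower became 22 with the higher threshold and 24 with equal weights. For Pdgfra against quiescent-marker cells, 1 lower became 0 with the 5% limit, doublet scores, TMM and DESeq2, and 2 with cells of 2 lineages kept or equal weights. Keeping cells of 2 lineages left 1 of 8 genes lower in myeloid cells. For sham fibre droplets against quiescent-marker cells, 31 lower became 18 with the 5% limit and 10 with 100 UMIs. Among the called genes, the ratios that changed sign were Gbp7 in MOV against sham quiescent-marker cells (0.013 with the 5% limit) and Ifit1 in myeloid against quiescent-marker cells (1.17 with cells of 2 lineages kept, 0.16 with the higher threshold). Thinned to 4000 UMIs, the share of cells with any UMI of the 38 genes was 32.2% in sham fibre droplets, 100% in matrix, 99.7% in cycling, 97.5% in Myog and 99.7% in remaining cells, and 99.2% in matrix cells with another seed. The 10% of cells with most UMIs of the 38 genes held 27.2%, 61.5% and 23.9% of them in sham quiescent-marker cells, fibre droplets and Pdgfra cells, and 29.0%, 32.6%, 41.1%, 37.1%, 34.7%, 30.5% and 20.8% in MOV quiescent-marker, matrix, cycling, Myog, remaining, Pdgfra and myeloid cells. Leaving out shared barcodes and keeping cells from 1000 UMIs were chosen after seeing the data. The cause of these changes was not tested. Sham depth limits the low genes, since Rsad2, Ifit2 and Usp18 had 2 UMIs each in sham quiescent-marker cells.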

Other observations

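Other lists of the pathway differed between cell types of the MOV library. In myeloid cells 8 of 8 tested class II genes were called higher than in quiescent-marker cells, and 7 of 11 tested sensors and adaptors were higher and none lower, where 19% of all genes tested were higher and 24.5% lower. All 4 tested further GTPases were called lower there. In Pdgfra cells all 4 tested interferon-induced chemokine genes were called higher than in quiescent-marker cells (24.1% of all genes tested). In Myog cells the monocyte attractants Ccl2 (815 CPM in quiescent-marker and 127 CPM in Myog cells, -2.68, -2.80 to -2.56) and Ccl7 (323 and 36 CPM, -3.17, -3.40 to -2.95) were called lower (14.7% of all genes tested). Cxcl9 had 0 UMIs in sham and 60 UMIs (15.1 CPM) in MOV quiescent-marker cells, a log2 ratio of at least 1.90.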
